A study of Mus musculus with 9 samples.

Results

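The 38 genes described here make or handle cholesterol and fatty acids, 2 routes that draw on cytosolic acetyl-CoA. They were taken by gene symbol from the 55471 gene identifiers counted in each library, and all 38 were among the 14918 genes with enough counts to be tested. The libraries came from mouse OT-I CD8+ T cells, which carry a transgenic receptor for an ovalbumin peptide. The control group (4 libraries) was Bdh1-WT and received an shRNA against firefly luciferase (shCtrl). The DKO group (5 libraries) was Bdh1-KO and received an shRNA against Oxct1 (shOxct1). In both groups the cells had been activated in culture with anti-CD3ε and anti-CD28 antibodies and IL-2, sorted for the Ametrine reporter and transferred into naive CD45.1 C57BL/6 mice, which were infected with LmOVA (Listeria monocytogenes that expresses ovalbumin). Donor cells (CD45.2, with the reporter) were recovered by a second sort at day 7, so each library holds cells that took up a vector and that a host with its own lymphocytes had kept. Oxct1 was lowered by a hairpin and not deleted, and the sources used here do not give how Bdh1 was deleted or the age of the animals. The labels do not say whether replicates came from separate mice, so p-values measure the spread between these samples only.

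Each library held 45205993 to 59853080 counts in genes. Oxct1 was at 59.2 to 71.5 CPM in control and 4.604 to 5.51 CPM in DKO, and Bdh1 at 25.1 to 35.1 CPM in control and 8.98 to 11.6 CPM in DKO (CPM, the count relative to the library total after TMM scaling), with no overlap for either gene. The 7 CD8 T cell and OT-I markers summed to 5678 to 7288 CPM in the control libraries and to less in the DKO libraries, 5060.4 to 5587 CPM, without overlap. Mean levels in control and DKO were 719 and 715 CPM for Cd8a, 2246 and 1701 CPM for Cd8b1, 1194 and 1063 CPM for Cd3e, 687 and 547 CPM for Cd3d and 1041 and 944 CPM for Trac, and Cd4 was at 0.172 and 0.344 CPM. The part of this order in the results was not tested. Control replicates 1 and 3 stood apart from the other libraries, control replicate 1 on the first principal component (-79.1, others -7.25 to 23.5) and control replicate 3 on the second (-70.2, others -5.59 to 20.2), and 16.7% of the reads of control replicate 1 were unmapped against 10.3 to 12.3% in the others. Some fits left out control replicate 1, or control replicates 1 and 3. For the 38 genes, their values are printed beside differences larger than 0.15 (log2) that they moved by over 1.5 times.

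Cholesterol is built from acetyl-CoA through mevalonate, isoprenoid units and squalene, and fatty acids are built from malonyl-CoA, then elongated and desaturated. Sterol regulatory element binding proteins (SREBPs) are transcription factors held in the endoplasmic reticulum by Scap and Insig proteins when sterols are plentiful. When sterols run low they are carried to the Golgi, cut free, and switch on the genes of both routes. Liver X receptors (LXRs) answer to sterol plenty: oxysterols activate them, and they switch on genes for cholesterol efflux and for fatty acid synthesis. Activated CD8+ T cells are known to raise SREBP activity to supply membrane for growth.

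The promoters were searched for letters that SREBPs, LXRs and their partners are known to bind. RefSeq windows (GRCm38.p6) were found for 30 of the 38 genes, and the 250 bases before the annotated start were searched on both strands for exact letters. The box CCAAT, bound by NF-Y, a common partner of SREBPs, was in the windows of 23 of the 30 genes and in 37.5% of all 27025 genes with a window. The box GGGCGG, bound by Sp1, was in 21 of the 30 and in 35.4% of all genes, and the E-box CACGTG in 7 of the 30 and in 6.86% of all genes. The sterol regulatory element TCACCCCAC was in 1 of the 30 genes, Hmgcs1, and in 0.555% of all genes. Its looser form TCACNCCAC, which covers the first, was also in Hmgcs1 only and in 1.22% of all genes. The ideal LXR element, a direct repeat of AGGTCA with a spacer of 4 bases, was in none of the 30 and in 0.0148% of all genes. The 27025 genes include genes without enough counts to be tested here, whereas all 30 were tested. The 2 sets are therefore unlike, and their shares were not compared by a test. The longest run of letters that the windows of any 2 of these genes shared was 18 bases, in Abca1 and Fasn. It was in no other gene's window of all 27025, and it was looked for after the sequences were seen. The windows of 3 genes are shown 5′ to 3′ on the strand of the gene, each ending at the base before the start. Hmgcs1 (chr13:119690101-119690350, plus strand) is shown because its window holds both the SREBP element and the boxes of its partners. Capitals mark the element TCACCCCAC and each CCAAT and GGGCGG box on either strand. Abca1 (chr4:53159896-53160145, minus strand) and Fasn (chr11:120824548-120824797, minus strand) are shown for the shared run. There, capitals mark the 18 shared bases, with the E-box in Abca1 and the CCAAT boxes in Fasn, of which 2 overlap. A match of letters is a description of the sequence and does not show binding.
Hmgcs1: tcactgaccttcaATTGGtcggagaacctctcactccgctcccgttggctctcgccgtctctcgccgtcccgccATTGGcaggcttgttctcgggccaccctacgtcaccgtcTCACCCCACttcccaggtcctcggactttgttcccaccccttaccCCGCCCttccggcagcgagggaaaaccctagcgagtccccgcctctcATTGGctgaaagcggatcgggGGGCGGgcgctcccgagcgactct
Abca1: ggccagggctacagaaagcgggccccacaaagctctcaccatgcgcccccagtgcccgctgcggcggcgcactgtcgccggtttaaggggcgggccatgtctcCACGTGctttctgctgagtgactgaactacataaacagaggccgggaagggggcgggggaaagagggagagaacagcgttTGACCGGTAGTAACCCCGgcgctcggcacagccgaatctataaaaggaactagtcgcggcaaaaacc
Fasn: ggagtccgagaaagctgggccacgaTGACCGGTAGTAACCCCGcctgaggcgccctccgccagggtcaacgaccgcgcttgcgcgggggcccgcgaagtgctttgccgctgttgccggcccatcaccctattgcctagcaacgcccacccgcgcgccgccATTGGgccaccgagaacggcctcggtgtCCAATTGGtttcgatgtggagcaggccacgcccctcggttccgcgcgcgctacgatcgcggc

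Levels were compared between genes per kilobase of exon. The highest mean over the 9 libraries was that of Nr1h2, which encodes LXRβ, at 65.8 CPM per kb. It was followed by the elongase gene Elovl1 (52.5 CPM per kb), by Mylip, which encodes a ubiquitin ligase for lipoprotein receptors (52.3 CPM per kb), and by the elongase gene Elovl5 (48.4 CPM per kb). Both SREBP genes were well expressed, Srebf1 at 21.9 and Srebf2 at 15.7 CPM per kb, and Srebf1 was above Srebf2 in 9 of 9 libraries, by 1.23 to 1.77 times. The lowest were Acacb (0.115 CPM per kb), Abca1 (0.147 CPM per kb), Fads2 (0.188 CPM per kb) and Scd1 (0.233 CPM per kb).

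Related genes were used unequally in these cells. Nr1h2 exceeded Nr1h3, which encodes LXRα, by 44.1 to 2477 times per length, the highest ratio being that of control replicate 1, where Nr1h3 had 3 counts. Scd2 exceeded Scd1 by 36.4 to 285 times, and the 2 desaturase genes share part of their sequence (4.56% of the 50-base words of Scd1 occur in transcripts of other genes, those of Scd2 among them). Acaca, for the cytosolic acetyl-CoA carboxylase, exceeded Acacb, for the mitochondrial one, by 2.26 to 5.08 times. Abcg1 exceeded Abca1, the other cholesterol exporter gene, by 38.8 to 97.1 times. Insig2 exceeded Insig1 by 2.02 to 4.11 times, and this ratio was 2.72 to 4.11 in control and 2.02 to 2.78 in DKO, with an overlap of the groups. Of the 2 genes for cholesterol esterification, Soat2 was above Soat1 per length in 9 of 9 libraries, the ratio of Soat1 to Soat2 being 0.310 to 0.605. In CPM the order was reversed, with 30.6 to 58.9 CPM for Soat1 and 18.8 to 29.8 CPM for Soat2. The lengths cover all annotated exons, 9791 bases for Soat1 and 2213 bases for Soat2. Which exons these cells use was not tested, so the order of these 2 genes is uncertain. For Acaca, Fdft1, Fdps and Idi1, 25.3 to 30.4% of their 50-base words occur in transcripts of other genes. Reads from such words cannot be counted for 1 gene alone, so the levels of these 4 genes are uncertain.

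**Figure D1:**
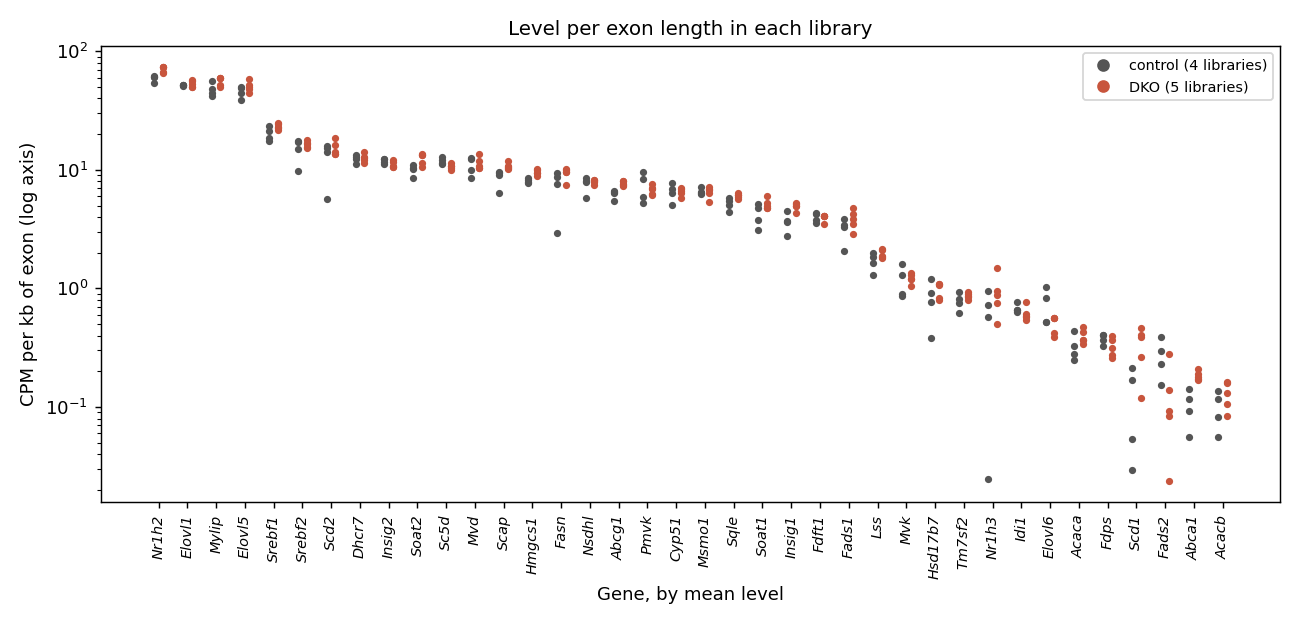
Level of each gene per exon length, in CPM per kb on a log axis, with 1 point per library (grey, control; red, DKO), genes ordered by the mean of all libraries. Nr1h2, Elovl1, Mylip and Elovl5 lie highest, and for Scd2, Fasn and Nr1h3 1 control point, that of replicate 1, lies below all other points.

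No gene of the 38 passed the threshold between DKO and control. In the quasi-likelihood test of edgeR, with p-values adjusted by Benjamini-Hochberg over all 14918 genes, 0 of 38 had an adjusted p under 0.05, where 2.83% of all tested genes did, and the lowest adjusted p among the 38 was 0.0963, that of Abcg1. At an unadjusted p under 0.05 there were 11 genes, 10 higher in DKO (26.3% of the 38, against 7.74% of all tested genes) and 1 lower (against 8.25% of all tested genes). Control and DKO values were fully separate for 5 genes, all higher in DKO (13.2% of the 38, against 4.61% of all tested genes), and for 0 lower in DKO (against 4.09%). These shares were not compared by a test, because the 38 genes were chosen with earlier results of these data known. The 5 were Hmgcs1, Scap, Nr1h2, Abca1 and Abcg1. Of the other tools run on the same counts, the DESeq2 Wald test called 4 of the 38 (Hmgcs1, Nr1h2, Abca1 and Abcg1, with 5.67% of all genes with an adjusted p called) and limma-voom called 3 (Nr1h2, Abca1 and Abcg1, with 6.68% of all called). Adding 1 surrogate variable to the edgeR model gave 5 (the 4 and Scap, with 7.7% of all called), each of them higher in DKO.

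The differences were small for most of the 38 genes, though not smaller than over all genes. The median absolute log2 fold change was 0.24, against 0.18 over all tested genes. The log2 fold change was above 0 for 29 of the 38 genes (76.3%, against 48.6% of all tested genes), and its median was 0.20, against -0.01 over all tested genes. The 95% interval of the log2 fold change lay within a 1.5-fold change in either direction for 24 of the 38 genes (63.2%, against 50.7% of all tested genes). It lay within a 2-fold change for 32. The 6 with wider intervals were Nr1h3, Abca1, Acacb, Scd1, Elovl6 and Fads2, with means below 5 CPM in both groups. The median log2 fold change of 0.20 rested in part on 1 library, as it was 0.11 without control replicate 1, and it was 0.03 without control replicates 1 and 3.

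**Figure D2:**
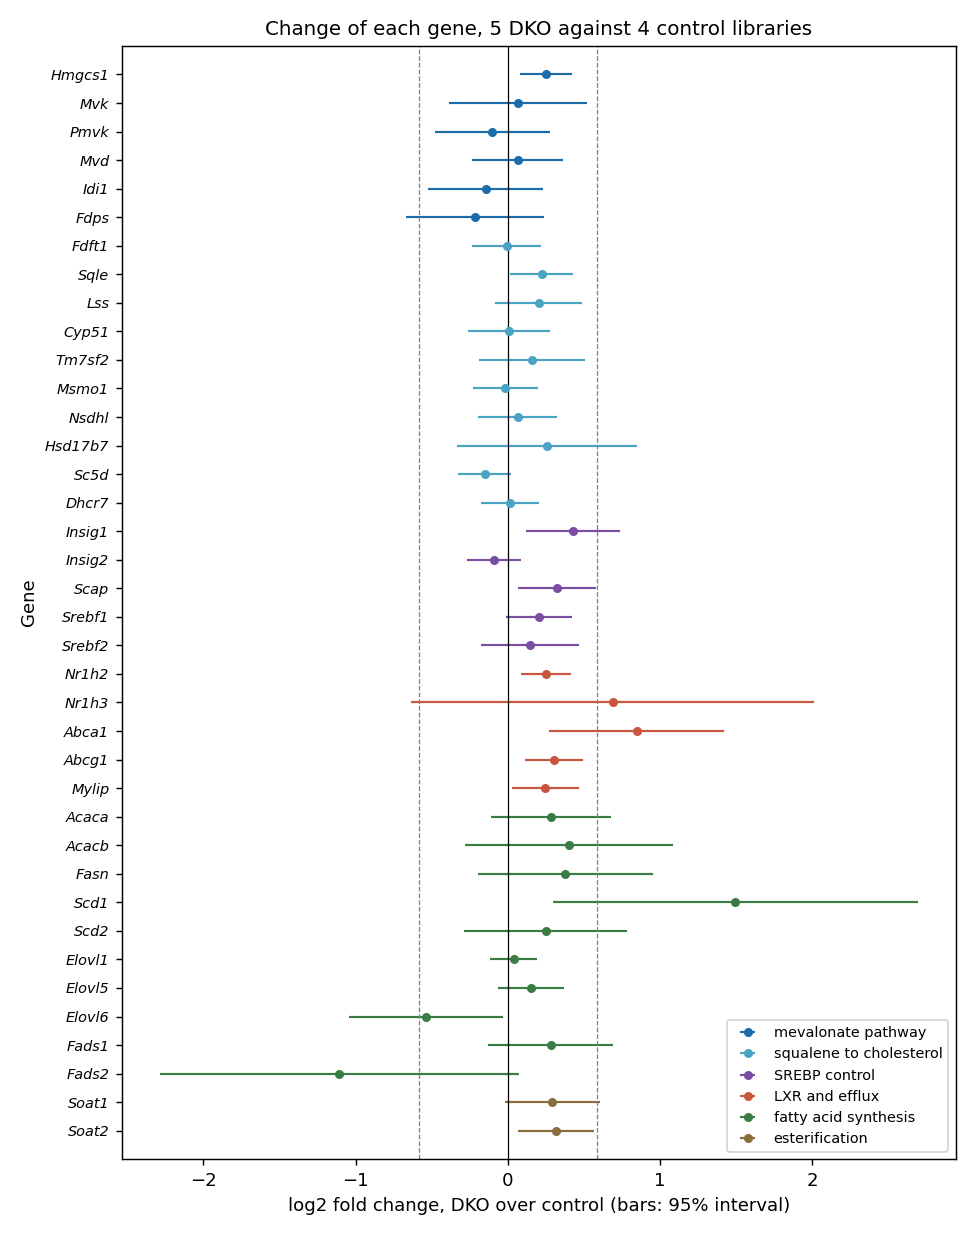
Log2 fold change of each gene (DKO over control; points) with its 95% interval (bars), from edgeR's quasi-likelihood fit, coloured by role; dashed lines mark a 1.5-fold change. The 16 enzymes of sterol synthesis lie close to 0 and the 5 genes of the LXR group all lie above it, the widest intervals being those of the genes with few counts.

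The enzymes of sterol synthesis differed little between the groups. None of the 16 passed the test, the median log2 fold change was 0.04, and the interval lay within a 1.5-fold change for 14 of them. The first gene of the mevalonate pathway in this set, Hmgcs1 (chr13:119690379-119708260, plus strand, protein-coding), which encodes HMG-CoA synthase, was the exception in its spread. It was at 38.9, 37.4, 35.5 and 36.6 CPM in control replicates 1 to 4 and 43.4, 46.2, 40.96, 47.02 and 43.1 CPM in DKO replicates 1 to 5. Every DKO library lay above every control library. The means were 37.1 ± 1.44 CPM over the 4 control libraries (mean ± SD) against 44.1 ± 2.45 CPM over the 5 DKO libraries, with a log2 fold change of 0.25 ± 0.08 (SE) and an adjusted p of 0.128 in edgeR, or 1.19-fold with an interval of 1.06 to 1.34. The antisense gene model Gm48342 overlaps it, and its counts by strand add up to 1.45 times the count used here. With those counts its log2 fold change was 0.29, and leaving out 1 library gave 0.23 to 0.28.

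The kinases and the decarboxylase that turn mevalonate into isoprenoid units showed no such separation. Mvk, for mevalonate kinase, was at 3.11 ± 0.939 and 3.26 ± 0.299 CPM in control and DKO, Pmvk, for phosphomevalonate kinase, at 12.5 ± 3.43 and 11.6 ± 1.03 CPM, and Mvd, for the decarboxylase, at 20.2 ± 3.62 and 21.2 ± 2.58 CPM (log2 fold changes 0.07, -0.10 and 0.06). In control replicate 1 the 2 kinase genes were at their highest, with 4.29 CPM for Mvk and 16.4 CPM for Pmvk, and Mvd was at its lowest, with 15.9 CPM. The isomerase gene Idi1 (2.38 ± 0.217 and 2.15 ± 0.300 CPM) and the farnesyl diphosphate synthase gene Fdps (1.58 ± 0.161 and 1.36 ± 0.248 CPM) had few counts, and their log2 fold changes were -0.15 and -0.22. The adjusted p of these 5 genes were 0.663 to 0.904 in edgeR, in the order Fdps, Idi1, Pmvk, Mvd and Mvk.

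From squalene on, Sqle, for squalene epoxidase, a rate-controlling step, had the lowest adjusted p of the 10 enzymes. It was at 24.5, 27.97, 30.1 and 31.8 CPM in control replicates 1 to 4 and 31.4, 34.03, 35.04, 32.6 and 33.8 CPM in DKO replicates 1 to 5, so that 1 control library (replicate 4) reached into the DKO range. The means were 28.6 ± 3.16 CPM over the 4 control libraries (mean ± SD) against 33.4 ± 1.41 CPM over the 5 DKO libraries, with a log2 fold change of 0.22 ± 0.09 (SE) and an adjusted p of 0.276 in edgeR. Lss, for the cyclase that makes lanosterol, was at 18.3 ± 3.28 and 21.1 ± 1.67 CPM in control and DKO (log2 fold change 0.20). Without control replicate 1 the log2 fold change of Sqle was 0.14 and that of Lss 0.08. Without control replicates 1 and 3 that of Sqle was 0.15 and that of Lss 0.08. Fdft1, for squalene synthase, had a log2 fold change of -0.01, and Cyp51, for the lanosterol demethylase, of 0.01. Fdft1 overlaps Ctsb on the other strand, and its counts by strand add up to 1.26 times the count used here.

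The later enzymes, which trim methyl groups and shift double bonds, spread on both sides of 0. Msmo1 and Nsdhl, for the C4 demethylation, had log2 fold changes of -0.02 and 0.06, and Tm7sf2, for a sterol reductase, of 0.16, which was 0.06 without control replicate 3, 0.26 without control replicate 4 and -0.02 without control replicates 1 and 3. Hsd17b7, for a sterol ketoreductase, was at 1.96, 6.09, 3.91 and 4.66 CPM in control replicates 1 to 4 and 5.47, 4.08, 4.24, 5.55 and 5.52 CPM in DKO replicates 1 to 5. Control replicate 1 was the lowest of the 9 libraries there, and the log2 fold change of 0.26 had an interval of -0.34 to 0.85. It was 0.01 without control replicate 1, -0.13 without control replicates 1 and 3 and 0.50 without control replicate 2. Sc5d, for lathosterol oxidase, was the gene furthest below 0 among the 10, at 57.7 ± 3.72 and 51.9 ± 2.51 CPM in control and DKO (log2 fold change -0.15, interval -0.32 to 0.02, adjusted p 0.380 in edgeR). Dhcr7, for the last reductase, had the highest level per length of the 16 sterol enzyme genes in this set. It was at 72.4 ± 5.26 and 73.2 ± 5.56 CPM in control and DKO, with an interval of -0.17 to 0.20 around 0.02. Leaving out control replicates 1 and 3 turned the median of the 16 sterol enzymes to -0.04 and left 5 of them above 0, where 10 had been.

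Among the genes of SREBP control, 2 of 5 had an unadjusted p under 0.05 and were higher in DKO, where 7.74% of all tested genes were. None passed the threshold. Insig1, which retains Scap when sterols are plentiful and is itself a target of SREBPs, was at 8.498, 14.03, 11.4 and 11.3 CPM in control replicates 1 to 4 and 13.4, 15.9, 15.4, 15.4 and 16.1 CPM in DKO replicates 1 to 5. DKO replicate 1 lay below control replicate 2, and the other 4 DKO libraries lay above all control libraries. The means were 11.3 ± 2.26 CPM over the 4 control libraries (mean ± SD) against 15.2 ± 1.096 CPM over the 5 DKO libraries, with a log2 fold change of 0.43 ± 0.14 (SE) and an adjusted p of 0.148 in edgeR, and the log2 fold change was 0.25 without control replicates 1 and 3. Scap, the escort that carries SREBPs to the Golgi, was at 47.8, 67.1, 69.6 and 71.5 CPM in control replicates 1 to 4 and 79.4, 75.96, 88.9, 76.8 and 79.3 CPM in DKO replicates 1 to 5. The groups did not overlap, and control replicate 1 was far below the other 3 control libraries. Its means were 63.998 ± 10.96 CPM over the 4 control libraries (mean ± SD) against 80.1 ± 5.16 CPM over the 5 DKO libraries, with a log2 fold change of 0.32 ± 0.12 (SE) and an adjusted p of 0.196 in edgeR, and without control replicate 1 the log2 fold change was 0.19 (adjusted p 0.122, and 0.0302 to 0.385 over the alternatives without the block). The log2 fold change of Scap was 0.20 without control replicates 1 and 3. Scap too has an overlapping gene model on the other strand, 5830462I19Rik, and its counts by strand add up to 1.401 times the count used here.

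Insig2, the isoform that SREBPs do not induce, was at 41.2 ± 1.79 and 38.7 ± 2.34 CPM in control and DKO (log2 fold change -0.09, interval -0.26 to 0.09). The SREBP genes themselves overlapped between the groups. Srebf1, whose product mainly drives fatty acid synthesis, was at 97.8, 121, 104 and 132 CPM in control replicates 1 to 4 and 126, 130.4, 138, 121 and 141 CPM in DKO replicates 1 to 5. Control replicate 1 was again the lowest, and edgeR gave a log2 fold change of 0.21 ± 0.10 (SE) and an adjusted p of 0.343. The log2 fold change of Srebf1 was 0.13 without control replicate 1 and 0.04 without control replicates 1 and 3. Srebf2, whose product mainly drives cholesterol synthesis, was at 70.2, 124, 108 and 126 CPM in control replicates 1 to 4 and 111, 118, 129, 113 and 120.5 CPM in DKO replicates 1 to 5. Control replicate 1 lay below the 8 other libraries, and the log2 fold change of 0.14 became -0.09 without control replicates 1 and 3. All 5 genes of this group had their lowest control value in control replicate 1.

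Every gene of the LXR group had a log2 fold change above 0. Of its 5 genes, 4 had an unadjusted p under 0.05 in edgeR, where 7.74% of all tested genes did and were higher in DKO. For 3 of the 5 the groups did not overlap, where 4.61% of all tested genes were higher in DKO without overlap. These shares were not compared by a test, because the genes were chosen with earlier results of these data known. None of the 5 passed the threshold over all genes in edgeR. The median log2 fold change of the 5 was 0.30, and it was 0.25 without control replicate 1 and 0.23 without control replicates 1 and 3. Nr1h2 (chr7:44549616-44553951, minus strand), for LXRβ, was at 204, 208, 182 and 205 CPM in control replicates 1 to 4 and 245, 222, 248, 224 and 248 CPM in DKO replicates 1 to 5. The lowest DKO library lay above the highest control library. The means were 199.8 ± 12.2 CPM over the 4 control libraries (mean ± SD) against 237 ± 13.2 CPM over the 5 DKO libraries, with a log2 fold change of 0.25 ± 0.07 (SE) and an adjusted p of 0.113 in edgeR, or 1.19-fold with an interval of 1.06 to 1.33. Nr1h3, for LXRα, was at 0.0619, 2.38, 1.44 and 1.83 CPM in control replicates 1 to 4 and 2.21, 3.78, 1.26, 1.91 and 2.39 CPM in DKO replicates 1 to 5, and its interval of -0.63 to 2.01 was too wide to show a difference of the size seen in Nr1h2. The log2 fold change of Nr1h3 was 0.69, and it was 0.28 without control replicate 1, 0.12 without control replicates 1 and 3, 1.05 without control replicate 2 and 0.44 without DKO replicate 2.

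Both cholesterol exporter genes, which are LXR targets, separated the groups. Abcg1 (chr17:31057675-31117988, plus strand) was at 39.5, 48.3, 47.7 and 46.9 CPM in control replicates 1 to 4 and 59.2, 59.2, 54.5, 55.003 and 53.5 CPM in DKO replicates 1 to 5. All DKO libraries lay above all control libraries, and control replicate 1 was the lowest. The means were 45.6 ± 4.11 CPM over the 4 control libraries (mean ± SD) against 56.3 ± 2.74 CPM over the 5 DKO libraries, with a log2 fold change of 0.30 ± 0.09 (SE) and an adjusted p of 0.0963 in edgeR, the lowest adjusted p of the 38, and without control replicate 1 the log2 fold change was 0.23 (adjusted p 0.0633, and 0.0202 to 0.242 over the alternatives without the block). Abca1 (chr4:53030787-53159895, minus strand), whose window is printed above, was at 0.578, 0.963, 1.48 and 1.21 CPM in control replicates 1 to 4 and 1.96, 2.17, 1.74, 1.87 and 1.78 CPM in DKO replicates 1 to 5, from 28 to 69 counts in a control library and 83 to 128 counts in a DKO library. The groups did not overlap, and the control libraries spread more widely than the DKO libraries. The means were 1.06 ± 0.384 CPM over the 4 control libraries (mean ± SD) against 1.903 ± 0.170 CPM over the 5 DKO libraries, with a log2 fold change of 0.85 ± 0.26 (SE) and an adjusted p of 0.122 in edgeR, or 1.80-fold with an interval of 1.21 to 2.67. Mylip, another LXR target, was at 134, 154, 179.6 and 144 CPM in control replicates 1 to 4 and 194, 192, 193, 162 and 168 CPM in DKO replicates 1 to 5. Control replicate 3 lay within the DKO range, and edgeR gave a log2 fold change of 0.25 ± 0.10 (SE) and an adjusted p of 0.254.

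Abca1, Abcg1 and Nr1h3 are also strongly expressed by macrophages, so the myeloid markers are set beside them. The 12 myeloid markers summed to 167 to 201 CPM in the control libraries and 117 to 128 CPM in the DKO libraries, and 8 of the 12 were above 1 CPM on average. The sum is led by Ctss (81.1 CPM in control and 51.2 CPM in DKO), Itgam (58.9 and 38.1 CPM) and Cd68 (29.1 and 16.8 CPM), whereas Lyz2 had the higher mean in DKO (2.43 and 5.84 CPM). The defining macrophage genes Adgre1, Cd14 and Csf1r were at 1.04, 0.359 and 1.84 CPM in control and 1.01, 0.334 and 2.37 CPM in DKO. These means hide a wide spread. Over all libraries Csf1r ranged from 0.495 to 5.63 CPM, Lyz2 from 1.47 to 13.6 CPM and Adgre1 from 0.0584 to 2.06 CPM. The 12 cell cycle genes summed to 221 to 329 CPM in control and 408 to 902 CPM in DKO, without overlap between the groups. The part of either list in these differences was not tested. In bulk RNA, a higher level per cell and more cells of a kind cannot be told apart.

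**Figure D3:**
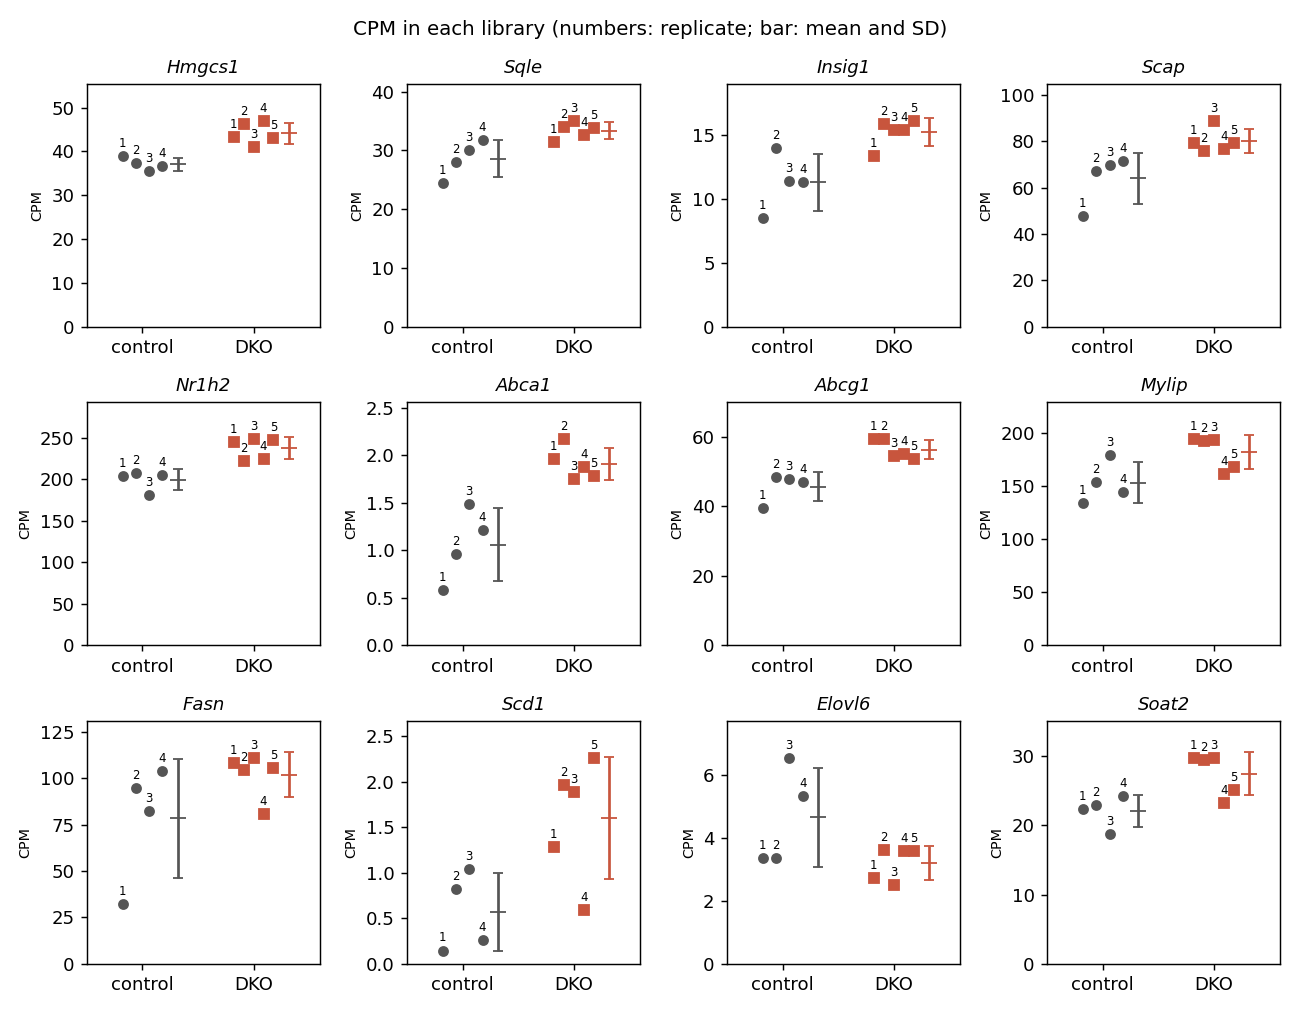
CPM of 12 genes in each library (grey circles, control; red squares, DKO; the number is the replicate), with the mean and SD of each group beside the points; each axis starts at 0. Hmgcs1, Scap, Nr1h2, Abca1 and Abcg1 show no overlap between the groups, whereas in Fasn only control replicate 1, at 32.3 CPM, stands below the rest.

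Fatty acid synthesis genes were less precisely measured. None of the 10 passed the test, and 2 had an unadjusted p under 0.05 (Scd1 and Elovl6). That was 20% of the 10, against 16.0% of all tested genes. The interval lay within a 1.5-fold change for 2 of the 10. Fasn (chr11:120805846-120824547, minus strand), for fatty acid synthase, was at 32.3, 94.9, 82.6 and 104 CPM in control replicates 1 to 4 and 108, 104, 111, 80.9 and 105 CPM in DKO replicates 1 to 5. Control replicate 1 was at less than every other library, and the other 3 control libraries lay in the DKO range. The means were 78.4 ± 31.99 CPM over the 4 control libraries (mean ± SD) against 102 ± 12.1 CPM over the 5 DKO libraries, with a log2 fold change of 0.38 ± 0.26 (SE) and an adjusted p of 0.526 in edgeR, and the log2 fold change was 0.11 without control replicate 1 and 0.02 without control replicates 1 and 3. Acaca, for the carboxylase that makes malonyl-CoA for synthesis, was at 5.54 ± 1.36 and 6.74 ± 0.919 CPM in control and DKO, and Acacb at 0.942 ± 0.346 and 1.24 ± 0.330 CPM, with log2 fold changes of 0.28 and 0.40. That of Acacb was 0.20 without control replicate 1, 0.23 without control replicates 1 and 3 and 0.61 without control replicate 2. That of Acaca was 0.46 without control replicate 2 and 0.18 without control replicate 4.

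The desaturase gene Scd1, a target of SREBPs and LXRs, had the largest log2 fold change of the 38. It was at 0.144, 0.823, 1.04 and 0.264 CPM in control replicates 1 to 4 and 1.28, 1.96, 1.89, 0.584 and 2.26 CPM in DKO replicates 1 to 5, or 7, 47, 47 and 15 counts in the control libraries and 65, 116, 90, 30 and 107 in the DKO libraries. DKO replicate 4 lay below control replicates 2 and 3, and the other DKO libraries lay above all control libraries. The means were 0.568 ± 0.432 CPM over the 4 control libraries (mean ± SD) against 1.597 ± 0.669 CPM over the 5 DKO libraries, with a log2 fold change of 1.49 ± 0.55 (SE) and an adjusted p of 0.203 in edgeR and an interval of 0.30 to 2.69. Scd2, which accounted for nearly all desaturase reads of the pair, was at 31.1, 77.3, 87.1 and 84.04 CPM in control replicates 1 to 4 and 74.6, 87.9, 76.9, 74.4 and 102 CPM in DKO replicates 1 to 5. Only control replicate 1 departed from the rest, and the log2 fold change of 0.25 was -0.01 without it, 0.03 without control replicates 1 and 3 and 0.16 without DKO replicate 5. Fads1 and Fads2 encode the desaturases of polyunsaturated fatty acids. Fads1 was at 15.2 ± 3.697 and 18.5 ± 3.396 CPM in control and DKO (log2 fold change 0.28, or 0.11 without control replicate 1 and 0.06 without control replicates 1 and 3), and Fads2 at 0.969, 0.753, 0.508 and 1.28 CPM in control replicates 1 to 4 and 0.277, 0.305, 0.462, 0.0779 and 0.931 CPM in DKO replicates 1 to 5. Fads2 was the furthest below 0 of the 38 (with a log2 fold change of -1.11 ± 0.54 (SE) and an adjusted p of 0.348 in edgeR), with an interval of -2.29 to 0.08 and with control and DKO libraries mixed between 0.508 and 0.931 CPM.

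The elongase genes did not move together. Elovl1, for saturated very long chains, was at 141 ± 1.29 and 145 ± 8.85 CPM in control and DKO, and its interval of -0.12 to 0.20 was the narrowest of the 38. Elovl5, for polyunsaturated chains, was at 160.3 ± 17.9 and 178 ± 17.2 CPM (log2 fold change 0.15). That of Elovl5 was 0.07 without control replicate 1, 0.10 without control replicates 1 and 3 and 0.10 without DKO replicate 2. Elovl6, which extends palmitate, was the 1 gene with an unadjusted p under 0.05 and a lower mean in DKO. It was at 3.36, 3.38, 6.57 and 5.34 CPM in control replicates 1 to 4 and 2.73, 3.62, 2.4999, 3.603 and 3.596 CPM in DKO replicates 1 to 5. Control replicates 3 and 4 lay above all DKO libraries, and control replicates 1 and 2 lay within the DKO range. The means were 4.66 ± 1.57 CPM over the 4 control libraries (mean ± SD) against 3.21 ± 0.550 CPM over the 5 DKO libraries, with a log2 fold change of -0.54 ± 0.23 (SE) and an adjusted p of 0.282 in edgeR, and the log2 fold change was -0.33 without control replicate 3. For storage of cholesterol as esters, Soat2 was at 22.4, 22.9, 18.8 and 24.2 CPM in control replicates 1 to 4 and 29.8, 29.4, 29.8, 23.2 and 25.1 CPM in DKO replicates 1 to 5. DKO replicate 4 lay below control replicate 4, and edgeR gave a log2 fold change of 0.32 ± 0.11 (SE) and an adjusted p of 0.195. Without control replicates 1 and 3 the log2 fold change of Soat2 was 0.21. Soat1 was at 41.2 ± 8.996 and 50.4 ± 5.07 CPM in control and DKO, with a log2 fold change of 0.29, or 0.16 without control replicate 1.

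Across the 38 genes, control replicate 1 had the lowest control value for 23 and the highest for 5. This library also stood apart over all tested genes, and the matching share over all genes is not given here. These counts therefore cannot be read as particular to these pathways. The low values of control replicate 1 were not spread evenly over the roles. It was the lowest control library for 5 of 5 SREBP control genes, 4 of 5 LXR group genes and 7 of 10 fatty acid synthesis genes, but for 6 of 16 sterol enzymes, of which it was the highest for 5. Control replicate 3 was the lowest control library for another 6 sterol enzymes. In DKO no library was the lowest for more than 9 of the 38 genes. The share of unmapped reads moves with this library, as given above, and its part in these values was not tested.

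**Figure D4:**
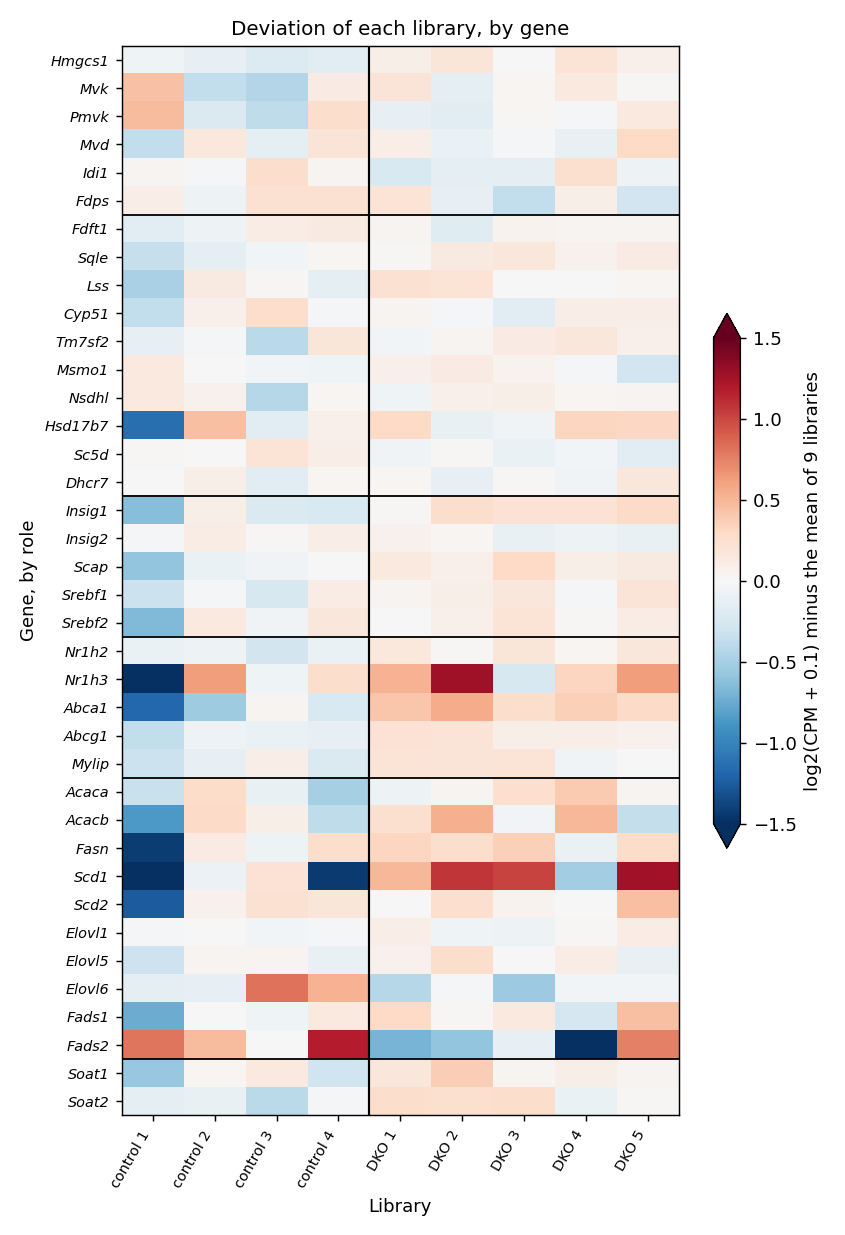
Deviation of each library (columns) from the mean of all 9 libraries for each gene (rows, grouped by role and separated by lines), as log2(CPM + 0.1), with red above and blue below the mean. The column of control replicate 1 is mostly blue in the rows of SREBP control, LXR and fatty acid synthesis, and mixed in those of sterol synthesis.

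**Figure D5:**
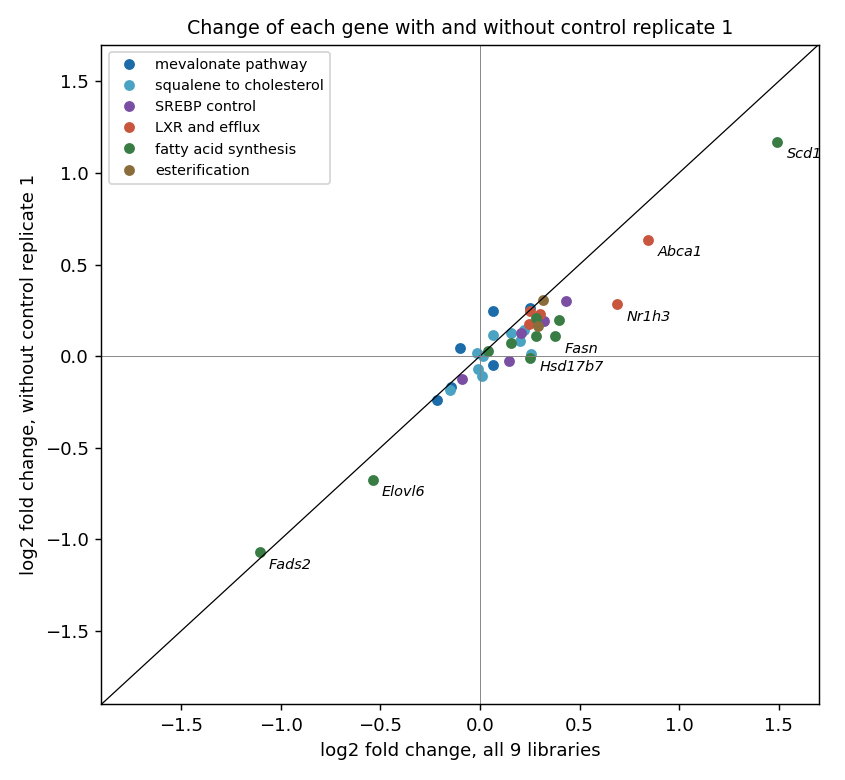
Log2 fold change of each gene in the fit without control replicate 1 (vertical axis) against the fit of all 9 libraries (horizontal axis), with the line of equality. Fasn moves from 0.38 to 0.11 and Nr1h3 and Hsd17b7 also fall below the line, whereas Fads2 stays near it.

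Of 41 other genes of these pathways that were listed as their neighbours, 40 were matched by symbol and 35 had enough counts to be tested. In edgeR 1 of the 35 passed the threshold, higher in DKO, and 0 passed lower, where 2.83% of all tested genes passed in either direction. At an unadjusted p under 0.05 in edgeR there were 5, 3 higher and 2 lower. That was 14.3% of the 35, near the 16.0% of all tested genes. Beside Scarb1, described next, the 5 included Lpcat3 (log2 fold change 0.22), Dhdds (0.25) and Acss2 (-0.19), named after their values were seen. The median log2 fold change of the 35 was 0.03. Scarb1 and Lpcat3 belong to the sublist of sterol transport and LXR-linked genes, of which 6 were tested. The others there had log2 fold changes of 0.19 (Stard4), 0.04 (Apoe), 0.02 (Npc2) and -0.05 (Npc1), also named after their values were seen. The gene that passed was Scarb1, which encodes a scavenger receptor that takes up cholesterol from high-density lipoprotein. Scarb1 (chr5:125277087-125341094) was at 11.5, 11.4, 14.6 and 10.3 CPM in control replicates 1 to 4 and 18.9, 17.1, 18.3, 14.5 and 19.6 CPM in DKO replicates 1 to 5. Only DKO replicate 4 lay within the control range, below control replicate 3. It rose from 11.96 ± 1.86 CPM (SD, n = 4) to 17.7 ± 1.99 CPM (SD, n = 5), with a log2 fold change of 0.57 ± 0.13 (SE) and an adjusted p of 0.0447 in edgeR. It kept the threshold without control replicates 1 or 3 or DKO replicate 4 and lost it without any of the other 6 libraries singly (adjusted p 0.0835 to 0.127).

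In the other sublists no gene passed. Of 6 tested genes that supply acetyl-CoA and NADPH, the largest differences were in Aacs, for the cytosolic enzyme that activates acetoacetate for lipid synthesis (36.6 ± 6.53 and 43.8 ± 3.81 CPM in control and DKO; edgeR gave a log2 fold change of 0.26 ± 0.13 (SE) and an adjusted p of 0.348), and in Idh1 (28.5 ± 6.11 and 33.6 ± 1.75 CPM, log2 fold change 0.24). Without 1 library, these log2 fold changes ranged over 0.13 to 0.35 for Aacs and 0.14 to 0.34 for Idh1. Of the 6, 3 had a log2 fold change above 0 and 3 below. Acss2, named above, was at 320 ± 15.1 and 281 ± 20.0 CPM in control and DKO. Its groups did not overlap (at least 297.9 CPM in control, at most 297.7 CPM in DKO), where 4.09% of all tested genes were lower in DKO without overlap. Of 8 further sterol and isoprenoid genes, none passed. Fdx1, for ferredoxin, had a log2 fold change of -0.30, and of -0.43 to -0.20 without 1 library. The proteases that cut SREBPs free, Mbtps1 and Mbtps2, had log2 fold changes of 0.17 and -0.16. Without 1 library these were 0.02 to 0.28 for Mbtps1 and -0.21 to -0.11 for Mbtps2. Of 10 genes of chain elongation and activation, those with the largest differences had few counts, namely Elovl4 (0.814 ± 0.572 and 1.44 ± 0.500 CPM) and Acsl3 (0.389 ± 0.0846 and 0.559 ± 0.172 CPM), and their intervals were -0.64 to 2.26 and -0.23 to 1.27.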

How the data were processed

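RNA sequencing counts of 9 libraries were used. Per the submitters' processing notes, Trim Galore 0.6.0, STAR 2.7.8a and the mm10 build were used, and Takara SMART-Seq v4 and Nextera Flex kits served for polyA RNA, per the labels' protocols. Raw counts per gene, unstranded and for each strand, are what the authors deposited. The unstranded count was used because the strands were equal (49.9 to 50.1% in the first). Rows without a gene stayed out: unmapped 10.3 to 16.7% of reads, multimapping 5.8 to 6.79%, no feature 4.01 to 5.2% and ambiguous 4.97 to 5.31%. Such counting omits multimapping reads and reads shared by overlapping genes. The sources used here do not give the annotation or read filters. Symbols, coordinates and exon lengths are from GENCODE M21 (GRCm38), which matched 55230 of 55471 identifiers.

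edgeR 4.0.16 in R 4.3.3 was used (TMM, factors 0.987 to 1.03, filterByExpr at 10 counts, 15 in total, robust quasi-likelihood test, group as the only term), with Benjamini-Hochberg adjustment over 14918 genes at 0.05. Intervals are 95%, from the fit's SE and degrees of freedom. Alternatives were DESeq2 1.42.0 (Wald test, size factors), limma 3.58.1 voom with quality weights, sva 3.50.0, other filters, strand sums, a replicate block and left-out libraries. No 2 libraries of a group differed by sampling noise only (chi-square per degree of freedom 8.96 to 180.3). Motifs were reported in 250 bases upstream, where the design had windows of 300 bases; in those, GGGCGG was in 22 genes and the other counts of genes were as given. Tables and figures used Python 3.11.15, numpy 2.4.6, pandas 2.3.3, scipy 1.17.1 and matplotlib 3.10.9. Members, neighbour genes and markers were chosen with earlier results of these data known. All members were named, as were both targeted genes and, in each of 5 lists of neighbour genes, those past the threshold or else the 2 with the largest change, except 1 gene that is not reported here. Of the marker lists not given in the report, the 8 B cell genes summed to 186 to 270.0 CPM in control and 194 to 215 CPM in DKO (led by Ighm), the 8 erythroid and platelet genes to 10.95 to 38.3 and 16.1 to 54.3 CPM, and the 4 CD4 T cell genes to 30.7 to 39.3 and 34.6 to 46.6 CPM.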

Additional observations from a re-analysis of the deposited data

Results flagged for a closer look

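In each group the highest or lowest library was compared with the rest by Dixon's ratio of gap to range, for 38 genes in 2 groups, 76 comparisons in all, of which chance marks about 1 in 20. It marked 7. In control, Nr1h2 was at 182 CPM in replicate 3 (others 204 to 208 CPM) and Abcg1 at 39.5 CPM in replicate 1 (others 46.9 to 48.3 CPM). In DKO, Insig1 was at 13.4 CPM in replicate 1 (others 15.4 to 16.1 CPM), Fdft1 at 14.7 CPM in replicate 2 (others 17.2 to 17.3 CPM) and Scap at 88.9 CPM in replicate 3 (others 76.0 to 79.4 CPM). In DKO replicate 4, Fasn was at 80.9 CPM (others 104 to 111 CPM) and Idi1 at 2.67 CPM (others 1.90 to 2.12 CPM).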

How the results depend on the processing

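The count of 0 called genes of the 38 held with DESeq2 size factors, with either other filter, with the strand columns summed, under the replicate block, without each library in turn (0 to 0) and without control replicates 1 and 3, and became 4 higher under the DESeq2 Wald test, 3 under limma-voom and 5 with 1 surrogate variable, with 0 lower throughout. Over all genes, the 197 higher and 225 lower became 491 and 510, 461 and 535, and 633 and 515 under those 3 settings, and 80 to 322 and 96 to 427 without 1 library. Deviations of same-numbered libraries from their group means were hardly correlated (-0.117 to 0.012). The labels do not say what the replicate numbers pair, and these values cannot settle it. The block gave 28 higher and 39 lower over all genes, Msmo1 0.0475 and Dhcr7 -0.0248 on the other side of 0, and an adjusted p of 0.170 for Scarb1, which also lost its call with no low-count filter (0.0533). No called gene changed direction. Log2 fold changes near 0 changed sign for Pmvk 0.0565, Mvd -0.0661, Fdft1 0.0005, Cyp51 -0.0761, Msmo1 0.0287, Hsd17b7 -0.0690, Dhcr7 -0.0219 and Srebf2 -0.0029 under limma-voom, of Pmvk 0.0297, Cyp51 -0.0508 and Msmo1 0.0114 with 1 surrogate variable, of Mvd -0.1468, Cyp51 -0.0243, Tm7sf2 -0.0190, Msmo1 0.0126, Nsdhl -0.0262, Hsd17b7 -0.1262, Dhcr7 -0.0681 and Srebf2 -0.0920 without both control replicates 1 and 3 and of Cyp51 -0.0039 and Dhcr7 -0.0006 under the stricter filter (1 CPM in 4 libraries). Without 1 library those that crossed 0 ranged over Mvk -0.0499 to 0.2472, Pmvk -0.2239 to 0.046, Mvd -0.048 to 0.1443, Fdft1 -0.071 to 0.0385, Cyp51 -0.1067 to 0.1082, Msmo1 -0.0513 to 0.0434, Nsdhl -0.0454 to 0.115, Dhcr7 -0.0307 to 0.0517, Srebf2 -0.0248 to 0.2332 and Scd2 -0.0082 to 0.3734. The cause of these changes was not tested. The stricter filter left Fads2 without a value. Low counts limit Fads2, Acacb, Fdps, Scd1, Abca1, Idi1, Mvk, Nr1h3 and Tm7sf2, which had at most 73 (Fads2) to 235 (Tm7sf2) counts in any library.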
